A study of Mus musculus with 2 samples.

Results

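Germ cell identity genes mark germ cells, and in these data they were read in cells sorted away from the germ cells. Which cells their RNA came from was not tested. The 8 genes described here are Dppa3, Dppa5a, Dazl, Ddx4, Pou5f1, Mael, Tfap2c and Utf1. They were taken as a named list, matched by symbol to the Ensembl identifiers of the somatic count table, and are 8 of the 42422 genes in it. The list was chosen with earlier results of these data known. The shares of all genes given beside its calls are therefore a description and not a test. Mouse gonads were collected at E12.5 (embryonic day, mid-gestation) from crosses in which an Oct4-eGFP transgene, green fluorescent protein under the Pou5f1 promoter, marks the germ cells. The gonad was separated from its mesonephros, dissociated and sorted, and RNA-seq counts by unique molecular identifier (UMI) were made from the GFP-negative cells. Each library came from several pooled gonads. The 10 groups all carry the same transgene and differ in sex, culture time and treatment. XX and XY soma were taken uncultured at E12.5 (0 h). XX and XY gonad-mesonephros pairs were cultured with the vehicle DMSO for 24 h or 72 h. XY pairs were also cultured for 24 h or 72 h with 500 nM PD0325901, an inhibitor of the kinases MEK1 and MEK2 (MEKi), or with 500 nM BGJ398, an inhibitor of the FGF receptors (FGFRi). Each group had 4 libraries except XY MEKi at 24 h, for which the labels list 3. A further library of the counts, named as 24 h with PD0325901, was not among the labels. It was left out of the groups and is described at the end.

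Primordial germ cells keep part of the gene programme of pluripotent cells while they migrate to the gonad. After they settle there, signals from the soma direct XX germ cells into meiosis and XY germ cells into mitotic arrest. Pou5f1 (OCT4) is the transcription factor at the centre of pluripotency. Utf1 and Dppa5a are expressed in pluripotent cells and early germ cells, Utf1 encoding a chromatin-bound factor and Dppa5a an RNA-binding protein. Dppa3 (Stella) marks specified primordial germ cells and protects DNA methylation in the early embryo, and Tfap2c acts in germ cell specification. Dazl, an RNA-binding protein, licenses germ cells for gametogenesis. Ddx4, the mouse Vasa helicase, and Mael, a component of the piRNA pathway, belong to the germ granules. The sort marker and Pou5f1 share a promoter, so Pou5f1 is the gene closest to what the sort selected against.

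The genes lie apart in the genome. On GRCm39 the GENCODE annotation places Dppa3 at chr6:122586548-122607237 on the plus strand, Utf1 at chr7:139523649-139525025 and Tfap2c at chr2:172391321-172400542, both on the plus strand. Pou5f1 is at chr17:35816789-35822274 on the plus strand. On the minus strand are Dppa5a at chr9:78274031-78278208, Dazl at chr17:50586366-50600664, Ddx4 at chr13:112734867-112789009 and Mael at chr1:166028770-166066331. Each count covers a whole gene, so exons and UTRs were not told apart. Dppa3 has a near-identical pseudogene, Dppa3-ps, which held 281 counts over the 39 libraries against 3869 for Dppa3. Reads of one may have been counted for the other or lost, and how many was not measured. The related copies Dppa5b and Dppa5c held 2 and 1 counts. Dppa3 overlaps Gm26168 on its own strand and Gdf3 on the other, and Pou5f1 overlaps Gm19553 on the other strand. The strand setting of the counting is not given, so reads of these neighbours may be among the counts.

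The promoters of 4 genes are shown because Dazl, Ddx4 and Mael rose together in XX soma over the first day of culture while Utf1 fell. Each run is the 250 bases before the RefSeq start on GRCm38.p6, 5′ to 3′ on the strand of the gene. Dazl is at chr17:50293621-50293870, Ddx4 at chr13:112652311-112652560, Mael at chr1:166238745-166238994 and Utf1 at chr7:139943606-139943855. Capitals mark the E-box CACGTG and the letters GCGGGA of an E2F site, searched on both strands together with the octamer ATTTGCAT.
Dazl: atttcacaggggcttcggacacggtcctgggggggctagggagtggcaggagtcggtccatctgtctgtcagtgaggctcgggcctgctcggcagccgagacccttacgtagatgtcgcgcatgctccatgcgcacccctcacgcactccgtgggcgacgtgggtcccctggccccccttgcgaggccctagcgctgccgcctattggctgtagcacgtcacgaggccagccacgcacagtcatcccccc
Ddx4: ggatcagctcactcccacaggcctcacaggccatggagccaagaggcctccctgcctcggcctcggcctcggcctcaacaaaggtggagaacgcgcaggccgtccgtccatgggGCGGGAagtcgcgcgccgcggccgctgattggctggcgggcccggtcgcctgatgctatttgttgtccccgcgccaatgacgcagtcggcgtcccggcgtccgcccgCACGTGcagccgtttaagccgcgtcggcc
Mael: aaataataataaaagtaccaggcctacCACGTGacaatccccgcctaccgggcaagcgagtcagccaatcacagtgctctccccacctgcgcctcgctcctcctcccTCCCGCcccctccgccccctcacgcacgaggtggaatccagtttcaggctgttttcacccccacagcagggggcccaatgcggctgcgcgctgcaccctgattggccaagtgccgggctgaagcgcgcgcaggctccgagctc
Utf1: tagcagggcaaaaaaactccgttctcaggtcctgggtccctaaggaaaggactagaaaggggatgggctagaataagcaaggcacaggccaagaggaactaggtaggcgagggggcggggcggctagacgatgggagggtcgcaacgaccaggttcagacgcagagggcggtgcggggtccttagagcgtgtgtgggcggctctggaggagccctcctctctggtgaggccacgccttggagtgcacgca

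The promoters of Ddx4 and Mael each held a CACGTG and a GCGGGA in the window from 250 bases before to 50 bases after the start. Of 32851 such mouse windows, 7.15% held CACGTG, 20.0% held GCGGGA and 1.74% held ATTTGCAT. The windows of Dazl, Utf1 and Pou5f1 held none of these letters. All 4 promoters shown were rich in CpG dinucleotides, with 28 in the Dazl window, 38 in Ddx4, 24 in Mael and 17 in Utf1, against a median of 7 over all windows. Dppa3, Dppa5a and Tfap2c had no entry in the promoter table.

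Total counts ran from 1380707 to 4836550 per library (median 2276976). Levels are CPM, the counts scaled to library depth with factors from the trimmed mean of M values (TMM). The somatic identity of the libraries matched their labels. The summed level of 8 Sertoli cell markers was 1990 to 2327 CPM in uncultured XY soma and 113 to 239 CPM in XX soma, and that of 7 pre-granulosa markers was 1526 to 1896 CPM in XX and 101 to 129 CPM in XY. The uncultured libraries, the DMSO libraries at 24 h and the MEKi libraries at 24 h came from 1 library set, and FGFRi at 24 h and all 72 h libraries from another. The set cannot be told apart from FGFRi at 24 h or from the later time, so these levels are given side by side with no test. The p-values below measure the spread between pools of gonads.

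RNA of all 8 genes was found in every group, and their sum was higher in the library set that held the uncultured soma. The 8 genes together summed to 117 ± 15.7 CPM (mean ± SD, n = 4) in uncultured XX soma and 263 ± 70.2 CPM in uncultured XY soma. After 24 h with DMSO the sums were 177 ± 52.3 CPM in XX and 181 ± 37.9 CPM in XY (n = 4 each). With MEKi at 24 h the sum was 376.5 ± 141 CPM (n = 3). The 5 groups of the other set were lower, from 43.1 ± 23.5 CPM with FGFRi at 24 h to 12.7 ± 5.22 CPM in XX soma at 72 h, with 30.7 ± 12.9, 32.5 ± 14.0 and 31.5 ± 7.63 CPM in XY soma with DMSO, FGFRi and MEKi at 72 h. No library of that set reached the lowest library of the earlier groups. In bulk cells, fewer carried-over germ cells, less germline RNA per cell and less of this RNA from other sources cannot be told apart.

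**Figure D1:**
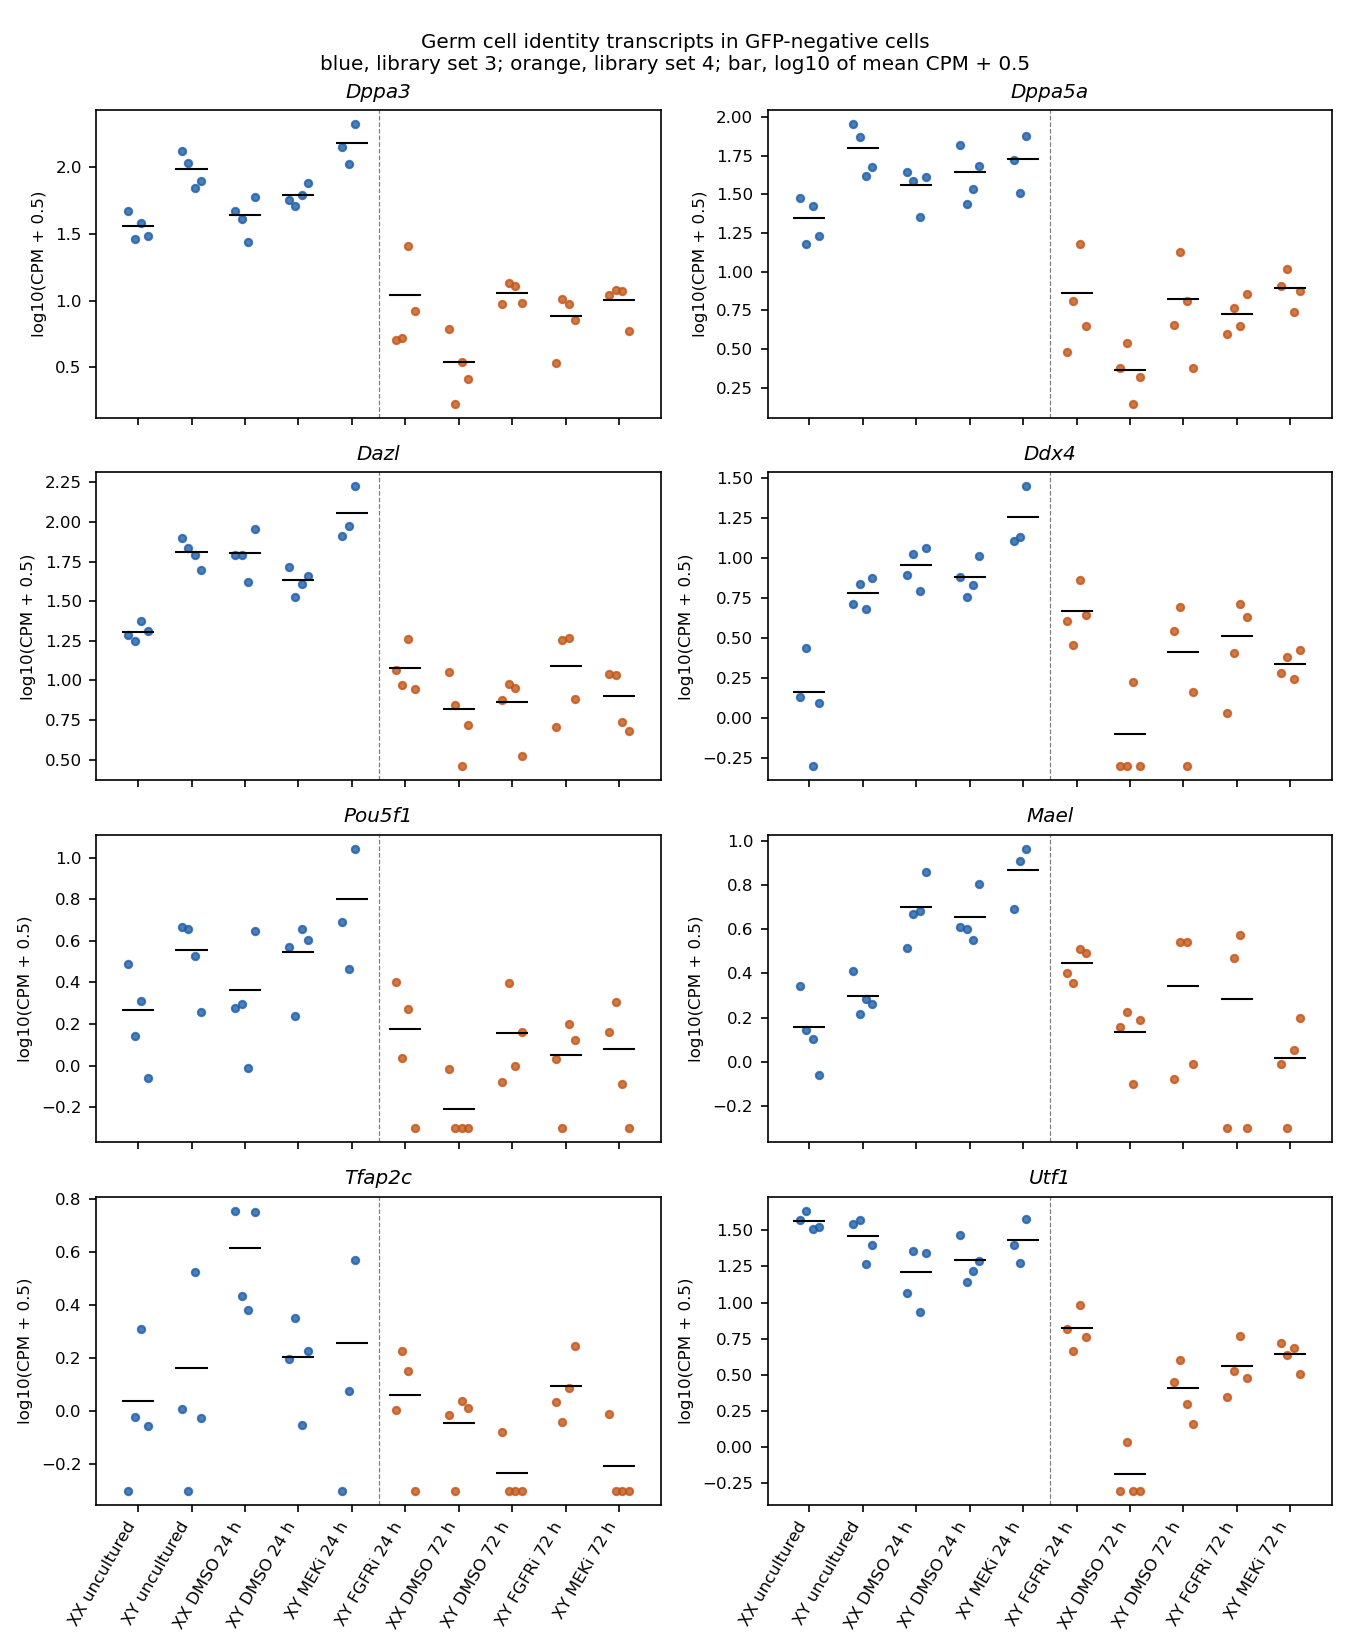
Level of each germ cell identity gene as log10(CPM + 0.5) in every library, by group. Points are libraries, coloured by library set, bars stand for the group mean and the dashed line parts the sets. Uncultured and 24 h libraries of the first set sit above the 72 h libraries for Dppa3, Dppa5a and Utf1, and XY soma with MEKi at 24 h has the highest mean for Dppa3, Dazl, Ddx4, Pou5f1 and Mael.

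The genes did not share 1 order of levels. Dppa3 was highest with MEKi at 24 h (151.5 ± 52.4 CPM), followed by uncultured XY (96.5 ± 28.6 CPM), XY DMSO at 24 h (60.7 ± 10.3 CPM), XX DMSO at 24 h (43.2 ± 13.6 CPM) and uncultured XX (35.6 ± 8.12 CPM), each overlapping the next. Below a gap came XY DMSO at 72 h (10.8 ± 2.15 CPM), FGFRi at 24 h (10.6 ± 9.77 CPM), MEKi at 72 h (9.64 ± 2.88 CPM), FGFRi at 72 h (7.10 ± 3.11 CPM) and XX DMSO at 72 h (2.96 ± 1.91 CPM). Dppa5a had the same 5 groups above the gap but was highest in uncultured XY soma (62.6 ± 22.6 CPM). Utf1 was highest in uncultured XX soma (36.0 ± 4.97 CPM), which overlapped uncultured XY (28.6 ± 8.81 CPM), and lowest in XX soma at 72 h (0.147 ± 0.294 CPM). Dazl with MEKi at 24 h (114 ± 46.2 CPM) stood above uncultured XY (64.1 ± 12.2 CPM) with no overlap. It did overlap XX DMSO at 24 h (63.5 ± 20.2 CPM), where the highest library was at 90.3 CPM and the lowest with MEKi at 81.1 CPM. Ddx4 with MEKi at 24 h (17.6 ± 8.57 CPM) stood above its nearest group, XX DMSO at 24 h (8.53 ± 2.45 CPM). Mael ran from 0.544 ± 0.443 CPM with MEKi at 72 h to 6.90 ± 2.22 CPM with MEKi at 24 h.

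Pou5f1 and Tfap2c were near the limit of counting. Pou5f1 held 169 counts and Tfap2c 95 over the 39 libraries. Pou5f1 means ran from 0.117 ± 0.234 CPM in XX soma at 72 h, where 1 count fell in 4 libraries, to 5.79 ± 4.24 CPM with MEKi at 24 h, and every group overlapped its neighbour in the order. Tfap2c means ran from 0.0831 ± 0.166 CPM in XY DMSO at 72 h, also 1 count, to 3.61 ± 1.80 CPM in XX DMSO at 24 h. These genes did not pass the filter on low counts, so 6 of the 8 were in the test across 15390 genes. For the other two, group means were compared by a two-sided exact permutation test, which cannot give a p below 0.0286 with groups of 4.

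Uncultured XX soma was compared with uncultured XY soma to see whether the sexes started alike. Dppa3, Dppa5a, Dazl and Ddx4 were lower in XX soma, and Utf1 was not. Of the 6 genes tested, 4 were lower in XX and 0 higher at a false discovery rate (FDR) under 0.05 and at least 1.5-fold by edgeR's quasi-likelihood test, against 9.42% of all genes lower and 7.83% higher. The median log2 difference was -1.49 over the 6 genes and -0.02 over all genes tested.

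Dppa3 held 28.5, 30.0, 37.8 and 46.2 CPM in the XX libraries and 69.5, 77.7, 107 and 132 CPM in the XY libraries. The groups did not overlap, and the log2 difference was -1.44 (SE 0.25, edgeR FDR 1.05e-05). Dppa5a held 14.7, 16.5, 26.2 and 29.5 CPM in XX and 40.9, 47.0, 73.2 and 89.2 CPM in XY, a log2 difference of -1.54 (SE 0.31, edgeR FDR 7.92e-05) again without overlap. Of the RNA-binding group, Dazl was tight in XX, at 17.4, 18.8, 19.9 and 23.1 CPM, and was 49.2, 60.9, 68.0 and 78.3 CPM in XY. Its log2 difference was -1.71 (SE 0.28, edgeR FDR 1.98e-06), a mean 3.26-fold lower in XX. Ddx4 gave 0, 0.751, 0.855 and 2.23 CPM in XX, only 9 counts in all, against 4.28, 4.67, 6.34 and 7.02 CPM in XY. The log2 difference of -2.36 (SE 0.62, edgeR FDR 0.00271) was no longer called by voom with quality weights and a minimum fold (FDR 0.0945).

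Utf1, the chromatin factor, behaved unlike the genes above. It held 31.6, 33.0, 36.8 and 42.7 CPM in XX and 18.1, 24.6, 34.7 and 36.9 CPM in XY, overlapping groups with the XX mean the higher, at a log2 difference of 0.35 (95% interval -0.17 to 0.88, edgeR FDR 0.377). Mael was near 1 CPM in both, with 8 counts in XX and 12 in XY (log2 difference -0.64, edgeR FDR 0.619). Pou5f1 had a mean of 1.34 ± 0.944 CPM in XX and 3.09 ± 1.32 CPM in XY (exact permutation p = 0.0857, n = 4 each), and Tfap2c 0.591 ± 0.664 and 0.953 ± 1.29 CPM (exact permutation p = 0.657). Markers of blood cells also differed. Of 4 erythroid markers 2 were lower in XX, with sums of 2849 to 5154 CPM in XX and 4701 to 6141 CPM in XY, none of them at 0. Of 5 endothelial markers 2 were lower in XX as well. The part of these cells in the germline difference was not tested.

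The first 24 h of culture were read against uncultured soma of the same sex. In XX soma Dazl, Ddx4 and Mael rose and Utf1 fell. Dppa3 and Dppa5a did not pass the test. In total 3 of the 6 genes tested were higher and 1 lower, against 5.24% of all genes higher and 2.35% lower.

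In the 24 h XX libraries Dazl held 41.1, 61.1, 61.3 and 90.3 CPM, all above the uncultured XX libraries and 3.25-fold higher on average (log2 change 1.70, SE 0.27, edgeR FDR 5.74e-06). Ddx4 held 5.74, 7.29, 10.1 and 11.04 CPM, all above the uncultured range. Its log2 change of 2.99 (SE 0.57, edgeR FDR 0.000138) is from 9 counts to 102. Mael, the piRNA pathway gene, rose from 0.375, 0.771, 0.890 and 1.71 CPM to 2.78, 4.17, 4.31 and 6.70 CPM (log2 change 2.19, SE 0.64, edgeR FDR 0.0158). The Mael call was lost without the 24 h library F9 (log2 change 1.95, FDR 0.0582) and without the uncultured library F5 (1.88, FDR 0.0604). Utf1 went the other way, to 8.13, 11.1, 21.7 and 22.3 CPM, all below the uncultured libraries (log2 change -1.16, SE 0.27, edgeR FDR 0.00162). With voom and a minimum fold the Mael and Utf1 changes were not called (FDR 0.681 and 0.153).

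Dppa3 in XX soma was 26.8, 40.0, 46.5 and 59.5 CPM after the day in culture, overlapping its uncultured libraries (log2 change 0.29, 95% interval -0.23 to 0.81, edgeR FDR 0.536). Dppa5a was 22.0, 38.3, 40.2 and 43.7 CPM, also overlapping (log2 change 0.77, edgeR FDR 0.0978). Tfap2c, the specification factor, went from 0, 0.375, 0.445 and 1.54 CPM to 1.91, 2.21, 5.13 and 5.21 CPM. The groups did not overlap, and the exact permutation p of 0.0286 (n = 4 each) is the smallest this design gives. Of 18 such tests for Pou5f1 and Tfap2c, 3 reached that value with no adjustment. Without the filter on low counts edgeR called the Tfap2c rise (log2 change 2.77, FDR 0.0462).

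XY soma over the same day gave no called rise. Of the 6 genes 1 was lower and 0 higher, against 5.56% and 8.76% of all genes. Dppa3 fell to 50.6, 56.5, 61.2 and 74.7 CPM, its highest library overlapping the lowest of the uncultured ones (log2 change -0.67, SE 0.23, edgeR FDR 0.0301). That call rested on individual libraries, since it was lost without any of 5 of the 8, with log2 changes of -0.47 (uncultured M2), -0.61 (uncultured M3), -0.64 (24 h M2), -0.58 (24 h M3) and -0.66 (24 h M4). It was also lost with DESeq2, which called 0 genes, with total counts in place of TMM (-0.53, FDR 0.0943) and with voom, 0 genes, while 4 of the 6 had an unadjusted p under 0.05. Dazl was 33.0, 40.3, 44.8 and 51.5 CPM at 24 h (log2 change -0.60, edgeR FDR 0.0645), Ddx4 5.21, 6.33, 7.15 and 9.83 CPM (0.32, FDR 0.650) and Mael 3.07, 3.47, 3.58 and 5.90 CPM (1.36, FDR 0.0918). Dppa5a was 26.8 to 65.4 CPM and Utf1 13.4 to 29.0 CPM, with edgeR FDR of 0.158 and 0.111. Other genes were called lower when a library was left out. Without 24 h M2 these were Dazl (-0.70, edgeR FDR 0.0454), Dppa5a (-0.80, FDR 0.0410) and Utf1 (-0.83, FDR 0.0264), 3 genes in place of 1. Dazl was also called without uncultured M6 (-0.71) and Utf1 without uncultured M5 (-0.74).

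Erythroid markers fell over the day in both sexes, 4 of 4 each, from 2849 to 5154 CPM down to 443 to 1083 CPM in XX and from 4701 to 6141 CPM down to 1348 to 2773 CPM in XY. None of the 4 was at 0 in any group. Of 4 macrophage markers tested 2 fell in each sex. In XY soma markers of the somatic lineages moved over the same day. Of 8 Sertoli markers 6 fell, from a sum of 1990 to 2327 CPM to 1056 to 1596 CPM. Of 4 Leydig markers tested 3 rose, the sum of all 5 on the list going from 156 to 305 CPM to 632.5 to 952 CPM. Of 6 interstitial progenitor markers 3 rose, from 1154 to 1362 CPM to 1497 to 1740 CPM, and of 7 pre-granulosa markers 4 rose and 1 fell, from 101 to 129 CPM to 203 to 243 CPM. None of these markers was at 0 in XY soma. The part of these cells in the germline changes was not tested.

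The change over the day differed between the sexes. In the test of the interaction, 3 of the 6 genes shifted towards XX and 0 towards XY, against 3.82% and 2.79% of all genes. The extra log2 change in XX was 2.30 for Dazl (SE 0.36, edgeR FDR 1.07e-05), 2.66 for Ddx4 (SE 0.74, FDR 0.0173) and 1.31 for Dppa5a (SE 0.41, FDR 0.0428). The Dazl call held whichever library was left out. The Ddx4 call was lost without uncultured XX F5 (2.51, FDR 0.0506), and the Dppa5a call was lost without any of 9 of the 16 libraries, with values of 1.09 to 1.28, so that 1 call was left without uncultured XX F5. The Dppa5a call was also lost with DESeq2 (1.27, FDR 0.207), which called 2 genes, and with total counts in place of TMM (1.24, FDR 0.0582). Without 24 h XX F6, Dppa3 was called as well (1.11, FDR 0.0443). For Utf1 the value was -0.58 (edgeR FDR 0.456) and for Mael 0.83 (FDR 0.707), so the fall of Utf1 in XX was not shown to differ from the XY change.

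**Figure D2:**
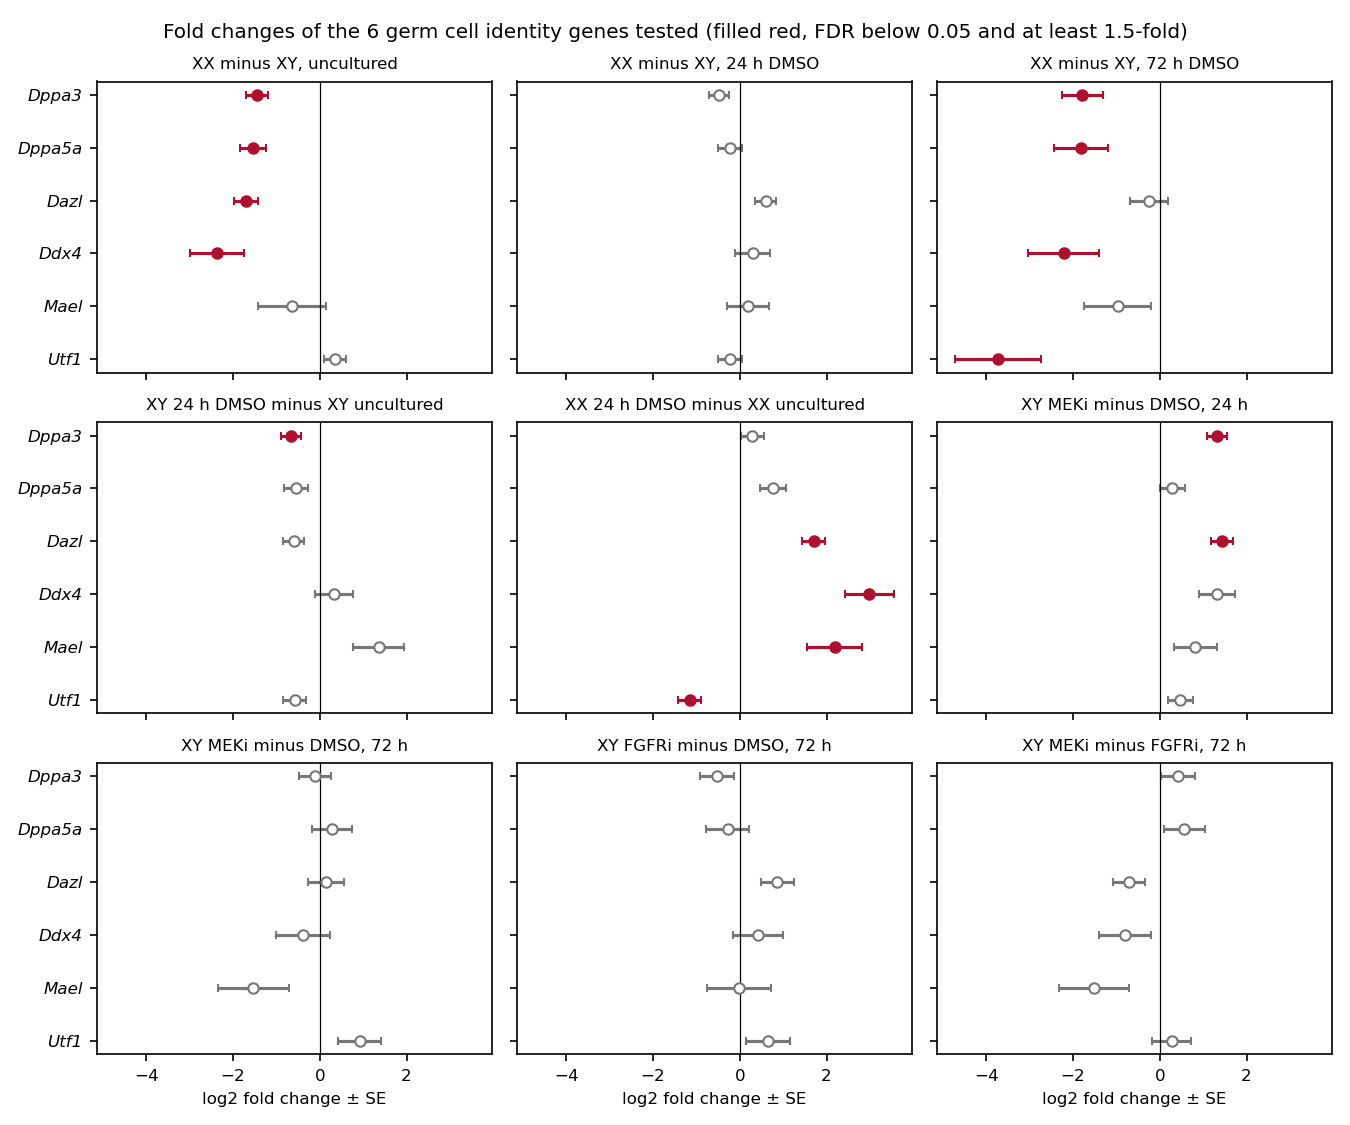
Log2 fold change of the 6 germ cell identity genes tested, by comparison, with bars of 1 SE. Filled red points passed an FDR under 0.05 and at least 1.5-fold. Values lie below 0 for Dppa3, Dppa5a, Dazl and Ddx4 in uncultured XX against XY soma, and above 0 for Dazl, Ddx4 and Mael in XX soma over the first day.

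At 24 h with DMSO no sex difference was called for these genes. Of the 6 tested 0 were called in either direction by edgeR, against 19.5% of all genes. Dazl alone had an unadjusted p under 0.05, and DESeq2 and voom called 0 genes. Dazl was 41.1 to 90.3 CPM in XX and 33.0 to 51.5 CPM in XY (log2 difference 0.60, 95% interval 0.12 to 1.07, edgeR FDR 0.0544). It was called without XX F6 (0.76, FDR 0.0164) or without XY M2 (0.70, FDR 0.0385). Ddx4 (log2 difference 0.30), Mael (0.19), Dppa5a (-0.23), Utf1 (-0.23) and Dppa3 (-0.48) overlapped between the sexes. Tfap2c was 1.91 to 5.21 CPM in XX and 0.384, 1.07, 1.18 and 1.74 CPM in XY, not overlapping (exact permutation p = 0.0286, n = 4 each), with 41 counts against 15 and an edgeR FDR of 0.157 without the filter. Pou5f1 had means of 1.82 ± 1.48 and 3.01 ± 1.22 CPM (exact permutation p = 0.343).

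At 72 h with DMSO the XX soma was lower again. Of the 6 genes 4 were lower in XX and 0 higher, against 10.7% of all genes lower and 9.45% higher, and the median log2 difference was -1.80. Dppa3 held 1.18, 2.09, 2.97 and 5.61 CPM in XX and 8.98, 9.001, 12.45 and 12.9 CPM in XY. The groups did not overlap (log2 difference -1.79, SE 0.48, edgeR FDR 0.00306). Dppa5a held 0.892, 1.57, 1.87 and 2.94 CPM in XX and 1.90, 3.99, 5.98 and 12.9 CPM in XY, with 1 XY library inside the XX range (log2 difference -1.82, SE 0.62, edgeR FDR 0.0233).

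Utf1 gave a count in only 1 of the 4 XX libraries at 72 h, against 0.948, 1.49, 2.33 and 3.48 CPM in XY. The totals were 1 and 19 counts, a ratio of 18.9 by depth with an exact interval of 3.01 to 787 that covers counting error only (edgeR FDR 0.00299). Ddx4 was at 0 in 3 XX libraries and at 1.19 CPM in the other, and in XY it was 0, 0.948, 2.99 and 4.48 CPM, overlapping groups with 4 counts against 20 (log2 difference -2.21, edgeR FDR 0.0353). Dazl did not differ in this way, at 2.38, 4.71, 6.46 and 10.8 CPM in XX and 2.84, 6.98, 8.47 and 8.95 CPM in XY (log2 difference -0.25, 95% interval -1.14 to 0.64, edgeR FDR 0.732). Mael was 0.297 to 1.18 CPM in XX and 0.332 to 2.99 CPM in XY (edgeR FDR 0.386). Pou5f1 held 1 count in XX and 8 in XY, a ratio of 7.98 with an interval of 1.07 to 354 (exact permutation p = 0.0571), and Tfap2c 4 and 1, a ratio of 4.01 with an interval of 0.397 to 198 (exact permutation p = 0.143).

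These 72 h calls were thin. The Ddx4 call was lost without XX F11 (log2 difference -1.87), F4 (-1.94) or F8 (-1.91) and without XY M2 (-1.95) or M4 (-1.69), and the Dppa5a call without XX F7 (-1.49) or XY M4 (-1.22), so that 2 calls were left without XY M4. With voom and a minimum fold 0 of the 4 were called. With the libraries of these groups alone only Dazl and Dppa3 passed the filter on low counts, and of these 2 Dppa3 was called (-1.79, edgeR FDR 0.000659), so the other calls were not tested there. The sex difference was not shown to change between 24 h and 72 h. Of the 6 genes 0 were called by edgeR, against 2.14% of all genes, with 4 at an unadjusted p under 0.05 and 0 called by DESeq2, and the value for Utf1 was -3.49 (edgeR FDR 0.0650). Utf1 was called without 24 h XX F4 (-3.65) or F6 (-3.70), 72 h XX F4 (-5.16), 24 h XY M2 (-3.74) or 72 h XY M6 (-3.73), and Ddx4 without 72 h XX F7 (-5.74).

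MEK inhibition was tested in XY gonads. After 24 h Dazl and Dppa3 were higher with MEKi than with DMSO. That is 2 of the 6 genes higher and 0 lower, against 0.955% of all genes higher and 1.47% lower, and 4 genes did not pass. Dazl held 81.1, 94.1 and 167 CPM with MEKi against 33.0 to 51.5 CPM with DMSO. No library overlapped, and the log2 change was 1.44 (SE 0.25, edgeR FDR 8.07e-05), or 2.71-fold. Dppa3, the marker of specified germ cells, held 105, 142 and 208 CPM with MEKi against 50.6 to 74.7 CPM (log2 change 1.32, SE 0.24, edgeR FDR 0.000207), again without overlap.

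Ddx4 showed a change of the same size, from 5.21 to 9.83 CPM with DMSO to 12.3, 13.0 and 27.5 CPM with MEKi, without overlap (log2 change 1.32, SE 0.41). It missed the threshold over all genes (edgeR FDR 0.0709) and was called by DESeq2, which called 3 genes. It was also called with no filter on low counts and with only the libraries of these groups. Dppa5a did not follow Dppa3. It was 31.6, 52.1 and 74.7 CPM with MEKi, overlapping 26.8 to 65.4 CPM with DMSO (log2 change 0.29, 95% interval -0.31 to 0.89, edgeR FDR 0.766). Utf1 was 18.2, 24.6 and 37.1 CPM (log2 change 0.48, edgeR FDR 0.516) and Mael 4.42, 7.56 and 8.71 CPM (0.82, FDR 0.534), both overlapping the DMSO libraries. Pou5f1 was 2.40, 4.42 and 10.5 CPM with MEKi against 1.24 to 4.03 CPM (exact permutation p = 0.343), and Tfap2c 0 to 3.21 CPM (exact permutation p = 0.857).

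The MEKi library M6 was the highest of its group for each of the 8 genes. Its sum was 536.7 CPM, against 272.4 and 320.5 CPM in the other MEKi libraries. Leaving out any 1 library kept the Dazl and Dppa3 calls, at log2 changes of 1.06 to 1.62 and 1.02 to 1.53. They were lost with voom and a minimum fold (FDR 0.0760 and 0.0809), which called 0 of the 6. Of the 5 endothelial markers 5 fell with MEKi at 24 h, to a summed 28.0 to 42.3 CPM from 122 to 175 CPM, none of them at 0, and their part in the germline values was not tested.

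FGFR inhibition at 24 h was sequenced in the other set, so its levels are set beside the DMSO values without a test. With FGFRi Dppa3 was 4.56, 4.75, 7.86 and 25.0 CPM and Dazl 8.30, 8.90, 11.2 and 17.8 CPM. Dppa5a was 2.53 to 14.6 CPM, Utf1 4.16 to 9.10 CPM, Ddx4 2.37 to 6.83 CPM and Mael 1.78 to 2.73 CPM. Each of these ranges except that of Ddx4 lay below its 24 h DMSO range in XY soma. The Sertoli marker sum was 1473 to 2157 CPM with FGFRi and 1056 to 1596 CPM with DMSO.

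At 72 h neither inhibitor gave a call for these genes. With MEKi 0 of the 6 were called by edgeR, against 6.45% of all genes, and 0 had an unadjusted p under 0.05. With FGFRi 0 were called, against 1.79%, and Dazl had an unadjusted p under 0.05. DESeq2 and voom called 0 in both. Dppa3 was 8.98 to 12.9 CPM with DMSO, 5.37, 10.4, 11.3 and 11.5 CPM with MEKi and 2.89, 6.69, 8.98 and 9.83 CPM with FGFRi. Dazl was 2.84 to 8.95 CPM with DMSO, 4.30, 5.01, 10.3 and 10.4 CPM with MEKi and 4.62, 7.11, 17.6 and 17.96 CPM with FGFRi. For Dazl the log2 change was 0.14 with MEKi (95% interval -0.69 to 0.97) and 0.86 with FGFRi (0.10 to 1.62, edgeR FDR 0.266), called without the filter on low counts (FDR 0.0451).

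The other genes were low at 72 h in all XY groups. Dppa5a was 5.01 to 9.94 CPM with MEKi and 3.46 to 6.69 CPM with FGFRi. Utf1 was 2.69 to 4.75 CPM with MEKi and 1.73 to 5.39 CPM with FGFRi. Mael was at most 1.07 CPM with MEKi and was at 0 in 2 of the 4 FGFRi libraries. Tfap2c held 7 counts with FGFRi and 1 with DMSO, a ratio of 6.85 with an interval of 0.880 to 309 (exact permutation p = 0.0286). Of 4 macrophage markers tested 4 fell with each inhibitor, from a sum of 32.2 to 94.5 CPM to 15.6 to 24.7 CPM with MEKi and 8.36 to 19.3 CPM with FGFRi. With MEKi 5 of 8 Sertoli and 3 of 5 endothelial markers also fell. In the same comparison 3 of 4 Leydig markers tested and 1 of 6 interstitial progenitor markers rose. With FGFRi 1 of 4 Leydig markers rose, and of 7 pre-granulosa markers 1 rose and 1 fell. The part of these cells here was not tested.

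MEKi and FGFRi at 72 h were matched in dose and time and were compared directly, as 1 pair. Of the 6 genes 0 were called by edgeR, against 6.37% of all genes, 0 at an unadjusted p under 0.05 and 0 by DESeq2 or voom. The intervals were wide, from -1.46 to 0.02 (log2, MEKi minus FGFRi) for Dazl and from -0.38 to 1.21 for Dppa3, so a difference was not detectable at this depth rather than absent. The MEKi change was also not shown to differ between 24 h and 72 h. Of the 6 genes 0 were called by edgeR, against 1.20%, with 4 at an unadjusted p under 0.05 and 0 by DESeq2, the log2 value for Dppa3 being -1.43 (edgeR FDR 0.108) and for Dazl -1.29 (FDR 0.203).

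The mix of the 8 transcripts also varied. Utf1 made up 31.3 ± 6.35% of their summed counts in uncultured XX soma and 10.8 ± 1.58% in uncultured XY soma (n = 4 each), and Dazl 17.1 ± 2.67% and 24.9 ± 3.66%. The count ratio of Dazl to Utf1 was 0.406 to 0.732 in the uncultured XX libraries. In every other group of the first set it was above 1, at 1.84 to 3.37 in uncultured XY, 2.75 to 5.50 in XX at 24 h, 1.78 to 2.53 in XY at 24 h and 3.30 to 5.17 with MEKi at 24 h. With FGFRi at 24 h it was 1.58 to 2.14. The uncultured XX libraries therefore had more Utf1 than Dazl counts, and no other library of these groups did. The ratio of Dppa5a to Dppa3 was 0.302 to 0.368 with MEKi at 24 h and 0.529 to 1.16 with DMSO, without overlap. The ratio of Dazl to Dppa3 was 1.31 to 1.54 in XX soma at 24 h and 0.600 to 0.911 in XY soma at 24 h. These ratios were read after the levels were known and carry no test.

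**Figure D3:**
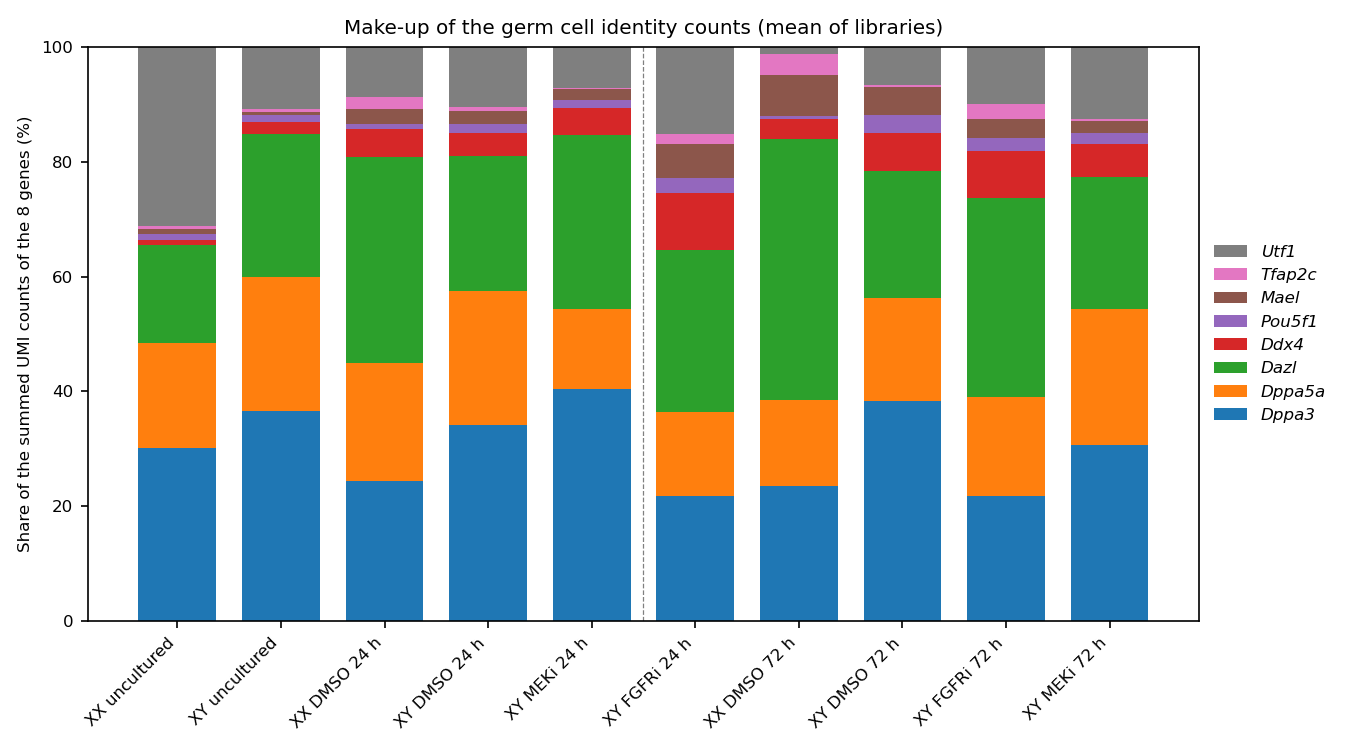
Mean share, in percent, of each of the 8 germ cell identity genes in their summed UMI counts, by group (stacked bars from 0 to 100). The Utf1 share is 31.3% in uncultured XX soma and 10.8% in uncultured XY soma, and the Dazl share is largest in XX soma at 72 h.

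Library by library, the genes moved together to different degrees. Over the 39 deviations of log2 CPM from the group mean, Pearson's r was 0.64 for Dppa3 with Dazl, 0.56 for Dppa3 with Dppa5a and 0.63 for Dazl with Utf1. In the 19 libraries of the first set the values were 0.76, 0.84 and 0.70. Over the 39 deviations the pairs of Dppa3, Dppa5a, Dazl and Utf1 ran from 0.47 to 0.64. Pairs with Ddx4 or Mael, where counts are few, ran from 0.13 for Ddx4 with Mael to 0.56 for Ddx4 with Utf1. The points share the library and its depth.

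Other germline genes were read from lists of meiotic, pluripotency and piRNA genes. Among 10 meiotic entry genes 7 were tested. Of these 7 were higher in XX than XY soma at 24 h, against 19.5% of all genes called in either direction. Over the first day 5 of the 7 rose in XX, against 5.24% of all genes. With MEKi at 24 h 6 rose, against 0.955% of all genes. Stra8, which starts the meiotic programme, was at 0.879 ± 0.661 CPM in XY DMSO and 27.9 ± 13.7 CPM in XY MEKi soma at 24 h (log2 change 4.81, SE 0.52, edgeR FDR 5.95e-09), with 11.6 ± 3.66 CPM in XX DMSO soma. Before culture it was the other way round, at 0.312 ± 0.210 CPM in XX and 13.0 ± 2.20 CPM in XY (log2 difference -5.03, edgeR FDR 1.31e-07). In uncultured soma 2 of the 7 were higher in XX, Taf7l (log2 difference 4.498) and Rec8 (1.97), and 3 lower, Stra8, Sycp1 (-2.19) and Smc1b (-1.67). Of all genes 7.83% were higher there and 9.42% lower. At 72 h 5 of the 7 were higher in XX, against 9.45% of all genes. With FGFRi 2 rose, the synaptonemal complex gene Sycp1 (2.15) and the cohesin gene Smc1b (1.80), against 1.79% of all genes called in either direction. With MEKi at 72 h 0 were called by edgeR, DESeq2 or voom and 0 had an unadjusted p under 0.05, against 6.45% of all genes called by edgeR. With voom and a minimum fold the 7 genes of the 24 h sex comparison became 6, the 5 of the XX first day 5, the 6 with MEKi at 24 h 3, the 5 of uncultured soma 3, the 5 at 72 h 3 and the 2 with FGFRi 0.

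Of 12 pluripotency and primordial germ cell regulators 7 were tested. In XX soma 4 rose over the first day, Sox2 (log2 change 2.64), Sall4 (2.25) and Dppa4 (1.52) having the largest changes, and 3 were lower in uncultured XX than XY soma, Sall4 (-1.86), Dppa4 (-1.63) and Sox2 (-1.48). Of 8 male germline and piRNA genes tested 4 were lower in uncultured XX soma and 3 rose over the first day, Mov10l1 (2.73), Piwil2 (2.36) and Rnf17 (1.31). Over all genes 9.42% were lower in uncultured XX soma and 5.24% rose in XX over the first day. With voom and a minimum fold the 4 and 3 regulators became 1 and 0, and the 4 and 3 piRNA genes 1 and 1. With MEKi at 24 h 0 of the 7 and 0 of the 8 were called by edgeR, DESeq2 or voom, with 3 and 5 at an unadjusted p under 0.05. By edgeR 0.955% of all genes were higher there and 1.47% lower. Nxf2 moved apart from its list, rising in XY soma over the first day (2.62) and being lower in XX than XY soma at 24 h (-2.03), neither called by voom.

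**Figure D4:**
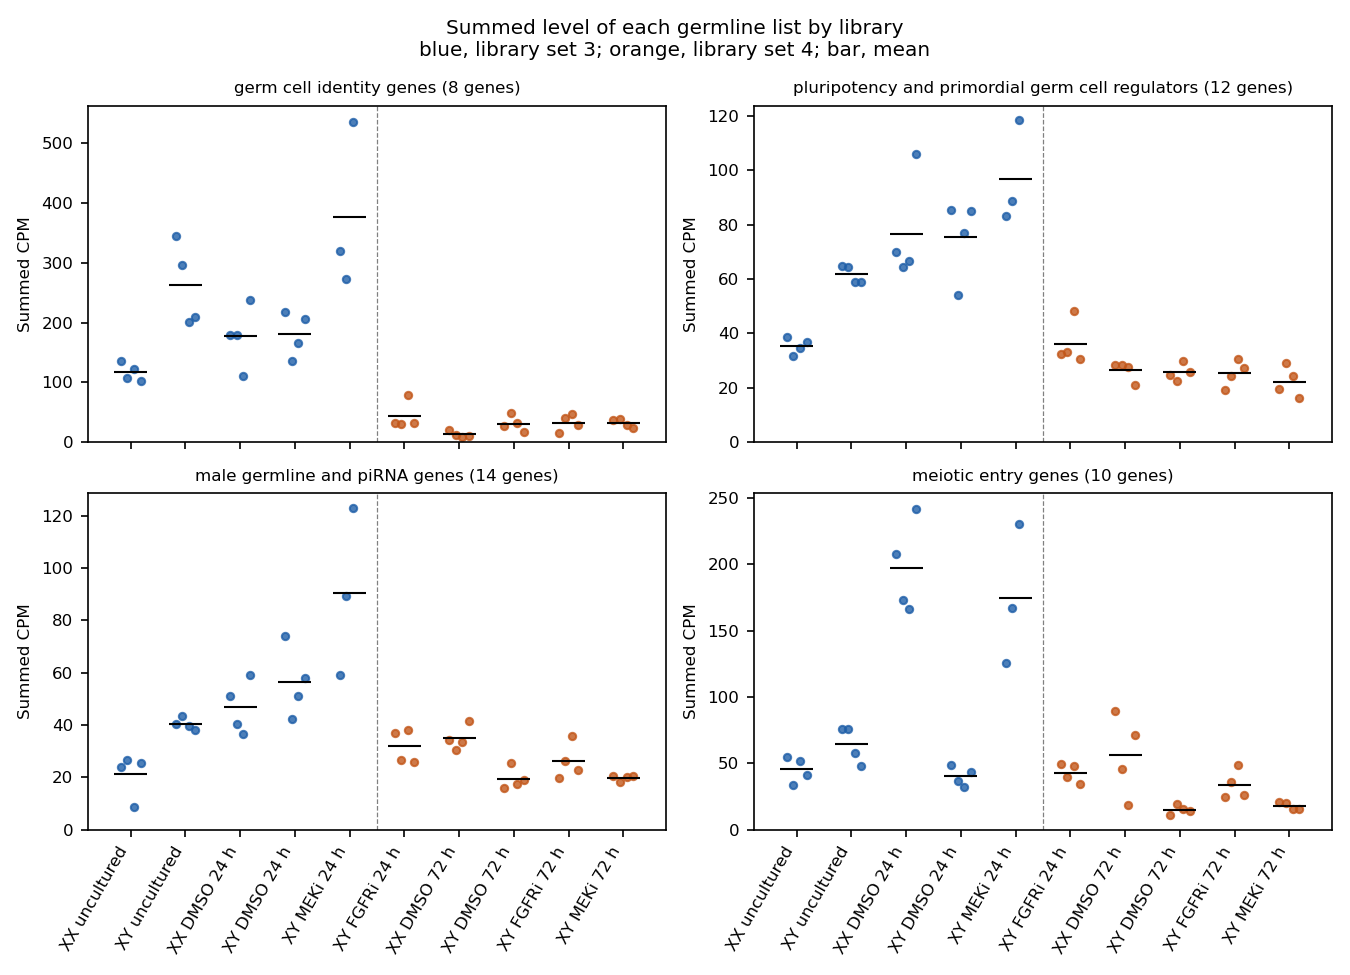
Summed CPM (linear axis from 0) of the 8 germ cell identity genes and of 3 other germline lists in every library, by group, with bars at the means. The meiotic sum is 167 to 242 CPM in XX soma and 32.2 to 49.0 CPM in XY soma with DMSO at 24 h, and 126 to 231 CPM in XY soma with MEKi at 24 h.

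Genes most like the 6 tested genes were found by correlation with the mean log2 profile of those 6 among 17324 genes. Pou5f1 and Tfap2c were not part of that profile. Over the 10 group means the closest were Sohlh2 (r = 0.98), Stk31 (0.97), Gm2808 (0.97), Rpl39l (0.97) and Stag3 (0.97), then Trim71, Sall4, Zfp42, Asz1 and Cdc16 (0.96). These points share the split between the library sets. Over the 39 deviations from the group means the closest were Rpl39l (0.71), Psmb5 (0.70) and Leng8 (0.68). Rpl39l was the only gene in the top 10 by both measures.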

How the data were processed

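The authors pooled barcoded libraries of sorted GFP-negative gonadal cells, aligned the reads and counted UMIs per gene with scPipe and Rsubread on GRCm39 with GENCODE genes. The deposited values are raw UMI counts, which collapse PCR copies, and the strand setting of the somatic counting is not given in the sources used here. The table held 42422 genes, of which 40391 identifiers (99.0% of counts) matched GENCODE M39. Total counts were 1380707 to 4836550 per library, and exact intervals cover counting error only. Groups came from the labels of 39 libraries. The 1 library with no matching label was left out of every comparison.

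Counts were tested with edgeR 4.0.16 (R 4.3.3): filterByExpr by group, TMM, a quasi-likelihood fit of the 10 group means over 39 libraries (29 residual degrees of freedom) and Benjamini-Hochberg adjustment over 15390 genes. Called means FDR under 0.05 and at least 1.5-fold, and FDR alone for interactions. CPM means are TMM-scaled. Pou5f1 and Tfap2c, below the filter, were tested by exact permutation (scipy 1.17.1). Alternatives were DESeq2 1.42.0, limma 3.58.1 voom with quality weights and treat, other scalings and filters, the libraries of each contrast alone, each library left out, and a replicate block. Of these, voom with quality weights and treat at 1.5-fold is the method the authors describe for their RNA-seq data. Deviations from the group mean had correlations of -0.15 to 0.11 between libraries with the same label number. With so few libraries per group these values cannot show whether the numbers pair the samples. The main fit used no pairing. On simulated data for uncultured XX against XY soma (15390 genes), 28.4% of 1.5-fold, 70.1% of 2-fold and 92.4% of 4-fold changes were called. The changed genes were drawn at random over all levels, and all other genes were left unchanged. These shares are therefore not the power for the genes described here, some of which had few counts. The members and the gene lists were chosen with earlier results of these data known. The genes named from other lists were the called ones with the largest changes, at most 3 per list, comparison and direction. Promoters came from RefSeq on GRCm38.p6, in which 5 of the 8 genes matched by symbol.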

Additional observations from a re-analysis of the deposited data

Results flagged for a closer look

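Among the 72 sets of 4 libraries looked at (1 gene in 1 group), 7 had a library far from the others. In 5 of these, 3 libraries were at 0, so that any count in the remaining one sets it apart, and the rate of about 1 in 20 that chance gives does not apply to them. Dppa3 was 25.03 CPM (55 counts) in FGFRi 24 h library M4, with the other libraries at 4.56 to 7.86 CPM. That library was also the highest of its group for Dppa5a, Dazl, Ddx4, Mael and Utf1, but not for Pou5f1 and Tfap2c. Its sum over the 8 genes was 78.26 CPM, with the others at 29.68 to 32.43 CPM. Dppa3 was 5.372 CPM in MEKi 72 h library M5, below the others at 10.4 to 11.5 CPM. The 5 cases beside libraries at 0 rest on 1 to 4 counts. These were Ddx4 at 1.189 CPM in XX 72 h library F7, Pou5f1 at 0.4674 CPM in XX 72 h library F11, Utf1 at 0.5875 CPM in XX 72 h library F4, and Tfap2c at 0.3324 CPM in XY DMSO 72 h library M2 and 0.4746 CPM in MEKi 72 h library M2.

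The change over the first day of culture differed between XX and XY soma for 3 genes by the test of the interaction. The log2 difference of changes (XX minus XY) was 2.302 for Dazl (edgeR FDR 1.07e-05), 2.662 for Ddx4 (FDR 0.0173) and 1.308 for Dppa5a (FDR 0.0428). The Dppa5a call was lost without any of 9 of the 16 libraries, with DESeq2 (FDR 0.207) and with total counts (FDR 0.0582), and the Ddx4 call without uncultured XX F5 (FDR 0.0506).

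The library with no group (total count 1560113) carries 24 h, PD500 (the MEK inhibitor) and M2 in its column name but is not among the libraries the labels list. It was set beside the 16 uncultured and DMSO libraries of its set, on CPM from total counts. It lay above every one of them for 5 genes, with Dppa3 at 166.7 CPM (260 counts), Dazl at 129.5 CPM (202 counts), Ddx4 at 17.31 CPM (27 counts), Mael at 10.9 CPM (17 counts) and Pou5f1 at 7.692 CPM (12 counts). The highest values in those 16 libraries were 121, 90.7, 11.1, 6.74 and 4.34 CPM. The 3 MEKi libraries at 24 h ran from 107 to 204 CPM for Dppa3, 80.5 to 164 CPM for Dazl, 12.2 to 27.0 CPM for Ddx4, 4.39 to 8.56 CPM for Mael and 2.46 to 10.4 CPM for Pou5f1, so that its Mael value alone lay outside their range.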

How the results depend on the processing

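Of 1195 recomputed log2 values of the 6 genes tested, 1095 kept their direction and side of the threshold, 39 calls were lost, 35 were gained and 26 values changed sign, all of them values not called at first. The 80 group levels moved by less than their SD with total counts in place of TMM. The count of genes called at 24 h between the sexes, 0 at first, was 1 with RLE size factors, 1 with at least 1 CPM in 4 libraries, 1 with no filter and 1 with only the libraries of the groups. The 72 h sex count of 4 was 0 with voom, and 1 with only those libraries, where the filter left 2 of the 6 genes to test. The XY first-day count of 1 was 0 with DESeq2, total counts or voom and 2 with only those libraries (5 genes tested), and the XX first-day count of 4 was 2 with voom. The 24 h MEKi count of 2 was 0 with voom and 3 with DESeq2, where Ddx4 was added. Ddx4 was also called there with no filter and with only the libraries of those groups. With no filter the FGFRi 72 h count was 1, the 72 h against 24 h sex interaction 3 and the MEKi interaction 2, the last being 1 with only those libraries (Dppa3). With 1 library left out, counts ran from 4 to 4, 0 to 1 and 2 to 4 for the sex comparisons at 0, 24 and 72 h, 0 to 3 for the XY and 3 to 4 for the XX first day, 2 to 2 for MEKi at 24 h, 0 to 0 for the 72 h inhibitor comparisons, 1 to 4 and 0 to 1 for the sex interactions and 0 to 0 for the MEKi interaction. The cause was not tested.

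With a replicate block, fitted to the libraries of the 2 groups alone, 5 of the 6 genes passed the filter on the first day and Mael was not tested. The XY first-day count was 2 and the XX first-day count 3, Utf1 in XX missing the threshold (log2 change -0.94, FDR 0.0512) and Dppa5a passing it (0.99, FDR 0.0204). For the 72 h inhibitor comparisons 3 genes were tested (Dazl, Dppa3 and Dppa5a) and the counts were 0. Whether the numbers pair the samples was not settled. The first-day blocks were added after seeing the data. No block was possible for MEKi at 24 h (1 shared number), for the sex comparisons (none shared) or for the interactions. Values that changed sign with the block at 72 h were Dazl (-0.34) and Dppa5a (-0.19) with MEKi.

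Apart from the 3 named below with their setting, the other sign changes came from leaving out 1 library, and are given as the range of log2 values over the libraries left out. In the 24 h sex comparison Dppa5a ran from -0.39 to 0.031 (above 0 without XY M2), Utf1 from -0.45 to 0.024 (without XY M2) and Mael from -0.040 to 0.42 (below 0 without XX F9), and in the 72 h one Dazl from -0.72 to 0.13 (above 0 without XX F7). With MEKi at 24 h Dppa5a ran from -0.053 to 0.57 (below 0 without M6). With MEKi at 72 h Dazl ran from -0.10 to 0.33, Dppa3 from -0.21 to 0.049 and Ddx4 from -0.75 to 0.14, with Ddx4 also at 0.14 with voom. With FGFRi at 72 h Dppa5a ran from -0.56 to 0.31 and Mael from -0.79 to 0.41. The Dppa5a MEKi interaction ran from -0.29 to 0.59, and was 0.0073 with 1 CPM in 4 libraries and 0.019 with no filter.

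Voom with a minimum fold called fewer genes in all, 952, 1185 and 1097 for the sex comparisons, 426 and 215 for the XY and XX first day, 47 for MEKi at 24 h and 78, 0 and 93 for the MEKi, FGFRi and MEKi against FGFRi comparisons at 72 h. Blocked counts were 1353 and 587 for the XY and XX first day and 500 for MEKi against FGFRi, and the MEKi interaction with no filter gave 349. Depth limits Pou5f1, Tfap2c, Mael and the 72 h values, where a gene often had under 10 counts in a library.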

Other observations

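In the library with no group the other 3 genes lay within the range of the 16 uncultured and DMSO libraries of its set. Dppa5a was 46.8 CPM from total counts (range 13.9 to 81.4 CPM), Utf1 was 26.9 CPM (8.06 to 40.3 CPM) and Tfap2c was 1.28 CPM (0 to 5.26 CPM). They also lay within the 24 h MEKi range, at 32.4 to 73.4, 18.6 to 36.5 and 0 to 3.15 CPM.

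Tdrd5, which encodes a Tudor protein of germ granules, was 22.4 ± 4.79 CPM in XX and 0.895 ± 0.407 CPM in XY DMSO soma at 72 h (log2 difference 4.60, SE 0.52, edgeR FDR 4.21e-10), while Ddx4 and Utf1 were lower in XX. Its sex difference was 1.10 at 24 h and rose by a further 3.51 on the log2 scale by 72 h (interaction, edgeR FDR 0.00139). Prdm1, a repressor that acts in germ cell specification and in other cells, was 0.214 ± 0.250 CPM with MEKi and 2.66 ± 1.44 CPM with DMSO at 72 h (log2 change -3.39, SE 0.87, edgeR FDR 0.00698), and 2.10 ± 1.4 CPM with FGFRi. The MEKi level was near the limit of counting. Voom with a minimum fold called 0 of the 7 regulators tested with MEKi at 72 h, so the Prdm1 call was lost there.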
